A study of Mus musculus with 2 samples.

Results

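The transcripts described here are those of 10 transcription factor genes that together set helix-loop-helix activity in T cells, chosen by name and found by Entrez Gene number among 27179 genes listed in a count table. They are the E protein genes Tcf3, Tcf4 and Tcf12, the Id genes Id1, Id2 and Id3, the basic helix-loop-helix oncogenes Tal1 and Lyl1, and the LIM-only oncogenes Lmo1 and Lmo2. All 10 were listed. RNA was sequenced from ALL65, a T cell acute lymphoblastic leukaemia (T-ALL) that arose in a mouse and whose genotype is given as Vav-tTA;TRE-GFP-shIkaros. In it a tetracycline-controlled transactivator expressed from a Vav promoter, active across blood cells, drives a short hairpin RNA against Ikaros together with green fluorescent protein (GFP). Both groups carry these transgenes. From leukaemic recipient mice, spleen cells were sorted as GFPhigh cells without treatment and as GFPmid cells after 3 days of doxycycline (Dox), which shuts off the hairpin and restores the cells' own Ikaros, so treatment and sort gate cannot be told apart. Both groups come from 1 primary leukaemia, and how the 3 mice named for each group entered its library is not stated. Ages and strain of the recipients are not given in the sources used.

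E proteins bind DNA as pairs at short sequences called E-boxes and promote T lineage genes and the control of thymocyte growth. Id proteins keep the helix-loop-helix that makes the pair but lack the DNA-binding basic region, so that an E protein held by an Id protein cannot bind. TAL1 and LYL1 pair with E proteins as well, and LMO1 and LMO2 join such pairs to further factors. These oncogenes are normally silent in maturing thymocytes and are switched on in many T-ALLs.

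Each group had 1 deposited library, of 7477988 counts without Dox and 14457475 counts with Dox. No value therefore has a replicate error, no test was possible and no p-value is given. The intervals given are 95% intervals that cover counting error only, and they are exact except where another kind is named. For the level of a gene with 0 counts a fixed limit of 3 counts is given, tighter than the upper bound of such an interval. Levels are in counts per 1000000 counts of the library (CPM), with library sizes scaled by TMM (trimmed mean of M values), a method that sets the bulk of genes equal. Log2 ratios are of Dox over untreated with a prior count of 2, while their intervals use the counts alone. A gene was tested against a size rule if its higher library reached 5 CPM, and it was called if it also differed at least 2-fold. The hairpin's target matched the labels, since Ikzf1, which encodes Ikaros, stood at 262 CPM without Dox and 1455 CPM with Dox. All 12 T cell markers examined had at least 5 CPM, with summed levels of 6722 and 7316 CPM. Their log2 ratios went both ways, 8 above 0 and 4 below. The largest above 0 were 0.78 for Cd247 and 0.69 for Cd28, and the largest below were -0.28 for Cd3g and -0.25 for Cd3d. In bulk RNA, fewer cells of a type and less RNA per cell cannot be told apart.

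Promoter sequences were available from RefSeq (GRCm38.p6) for 7 of the 10 genes. They are shown for the abundant E protein and Id genes, Tcf3, Tcf12, Id2 and Id3. Whether these genes respond to factors that bind E-boxes was not tested. Each run is the 250 bases before an annotated start on the gene's own strand, 5′ to 3′, with every E-box (CANNTG, read on both strands) in capitals. For Tcf12 the outermost of its 3 listed starts is shown. The Tcf3 window lies inside the span of its gene, which ends at 80433976. The Tcf12 window overlaps the outer end of its gene, at 72111893. Neither window is therefore wholly upstream of its gene.
Id3, chr4:136143572-136143821, plus strand: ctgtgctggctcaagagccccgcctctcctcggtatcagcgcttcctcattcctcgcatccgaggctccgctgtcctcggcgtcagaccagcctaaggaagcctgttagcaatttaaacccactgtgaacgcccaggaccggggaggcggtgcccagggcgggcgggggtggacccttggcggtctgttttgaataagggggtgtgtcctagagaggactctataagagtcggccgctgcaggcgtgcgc
Id2, chr12:25096093-25096342, minus strand: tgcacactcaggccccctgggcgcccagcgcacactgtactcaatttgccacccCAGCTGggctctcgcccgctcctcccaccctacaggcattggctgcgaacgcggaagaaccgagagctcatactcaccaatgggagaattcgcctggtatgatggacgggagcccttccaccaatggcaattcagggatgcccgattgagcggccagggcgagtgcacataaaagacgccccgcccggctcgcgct
Tcf3, chr10:80433636-80433885, minus strand: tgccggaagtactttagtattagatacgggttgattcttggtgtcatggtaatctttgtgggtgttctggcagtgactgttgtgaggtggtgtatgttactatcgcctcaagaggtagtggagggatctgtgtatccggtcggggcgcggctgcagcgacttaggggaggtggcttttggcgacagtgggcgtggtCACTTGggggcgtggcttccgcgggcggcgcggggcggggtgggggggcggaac
Tcf12, chr9:72111820-72112069, minus strand: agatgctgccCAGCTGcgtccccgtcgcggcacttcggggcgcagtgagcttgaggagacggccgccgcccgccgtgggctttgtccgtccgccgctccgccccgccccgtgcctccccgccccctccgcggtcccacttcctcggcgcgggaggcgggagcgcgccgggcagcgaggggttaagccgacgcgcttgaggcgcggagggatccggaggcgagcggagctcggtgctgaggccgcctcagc

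An E-box occurred in 66.2% of the 32851 promoter windows of this length in the table. The Id3 window held none, and the windows of Id2, Tcf3 and Tcf12 shown here held 1 each. In Id2 and Tcf12 the letters were CAGCTG, a form found in 13.0% of all windows, starting 196 and 240 bases before the start. In Tcf3 they were CACTTG, starting 54 bases before the listed start and within the gene's span. The letters GGGAA, the core that Ikaros is known to bind, were searched on both strands. They were in none of these 4 windows, against 56.2% of all windows. Among the windows not shown, each of Tal1 held 1 and those of Lmo1 held 3 and 2, while those of Lyl1 and the other starts of Tcf12 held 0. So few windows cannot show a lack of the letters. Any E-box or Ikaros site outside the windows was not searched.

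Among the E proteins, Tcf12 and Tcf3 were abundant and almost equal in both libraries, and Tcf4 was close to undetected. Tcf12 (Entrez Gene 21406, chromosome 9 from 71844252 to 72111893 in GRCm38) had 7497 counts, or 986 CPM, without Dox and 13742 counts, or 966 CPM, with Dox. Its log2 ratio was -0.03 (-0.07 to 0.01). Tcf12 encodes HEB, the partner of the Tcf3 product in thymocytes, and its interval places any difference in these libraries at under 1.5-fold in either direction.

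Tcf3 (Entrez Gene 21423, chromosome 10 from 80409541 to 80433976) encodes the E protein that starts both B and T lineage programmes. It had 2778 counts, or 366 CPM, without Dox and 5410 counts, or 380 CPM, with Dox, and a log2 ratio of 0.06 (-0.01 to 0.12). The counts are summed per gene, so the alternatively spliced forms of Tcf3, and the long and short forms of Tcf12, were not separated. Tcf4 (Entrez Gene 21413, chromosome 18 from 69343429 to 69687967), the E protein gene of plasmacytoid dendritic cells and B cells, had 1 count without Dox and 4 with Dox, or 0.132 and 0.281 CPM. Its log2 ratio of 0.56 has an interval from -2.24 to 6.72, so no difference was detectable at this depth.

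Among the Id genes, Id3 stood 1.37-fold higher with Dox, Id2 stood at much the same level and Id1, the scarcest, stood 2.68-fold lower. Id3 (Entrez Gene 15903, chromosome 4 from 136143822 to 136145392) is the Id gene that T cell receptor signals induce in thymocytes. It had 2137 counts, or 281 CPM, without Dox and 5492 counts, or 386 CPM, with Dox. The log2 ratio was 0.46 (0.38 to 0.53). It lay above those of 90.7% of the 10113 genes tested but below the 2-fold of the size rule, and the whole interval is below 1.5-fold as well. An interval that leaves out 0 is common at this depth, since 50.7% of all genes tested had one.

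Id2 (Entrez Gene 15902, chromosome 12 from 25093799 to 25096092), the Id gene of innate lymphoid cells and effector T cells, had 247 counts without Dox and 493 with Dox. These are 32.5 and 34.7 CPM, and the log2 ratio was 0.09 (-0.13 to 0.32).

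Id1 (Entrez Gene 15901, chromosome 2 from 152736251 to 152737410) is a target of bone morphogenetic protein signals and is prominent in endothelial and other non-lymphoid cells. It had 41 counts, or 5.39 CPM, without Dox and 27 counts, or 1.90 CPM, with Dox, and a log2 ratio of -1.42 (-2.26 to -0.77). Id1 was the only member that met the size rule. Of 10113 genes tested, 2.24% were called lower and 2.21% higher, and among the 860 tested genes with 5 to 10 CPM in the higher library 6.74% were called lower. Id1 passed the minimum only through the untreated library, so that it had to be lower with Dox to show a large difference at all. The bound of its interval nearest to 0 lies within 2-fold, a stricter form of the rule that 1.39% of all genes tested met in this direction. With the Dox counts thinned to the untreated depth its ratio was -0.99, short of the rule. That thinning was a single random draw from 27 counts, so the miss may differ from draw to draw.

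Markers of cells in which Id1 is prominent were set beside it. Of 8 endothelial markers, 2 were detected at 1 CPM or more, as the mean of both libraries. These were Pecam1, also a lymphocyte gene, at 159 and 205 CPM and Eng at 38.4 and 31.5 CPM, while Cdh5, Kdr and Emcn had 0 counts in both libraries, and all 8 summed to 198 and 237 CPM. Of 8 stromal markers, 3 reached that level and had ratios below 0. These were Pdgfrb at -1.72 (-2.04 to -1.45), Col1a2 at -0.56 (-0.67 to -0.45) and Col1a1 at -0.10 (-1.08 to 0.91), an interval that holds 0. Under that level, Vcam1 at 1.01 (-0.52 to 3.76) and Pdgfra at 0.76 (-1.74 to 6.98) had ratios above 0. Col3a1, Dcn and Lum had 0 counts. Stromal markers summed to 203 CPM in the untreated and 126 CPM in the Dox library, mostly from Col1a2 at 165 and 112 CPM. Of 10 myeloid markers, Lyz2 stood at 7.24 and 1.69 CPM and Itgam at 8.42 and 14.7 CPM, and Cebpa, Elane, Mpo and S100a8 had 0 counts, and all 10 summed to 16.7 and 17.4 CPM. The part of these cells in the Id1 ratio was not tested.

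**Figure D1:**
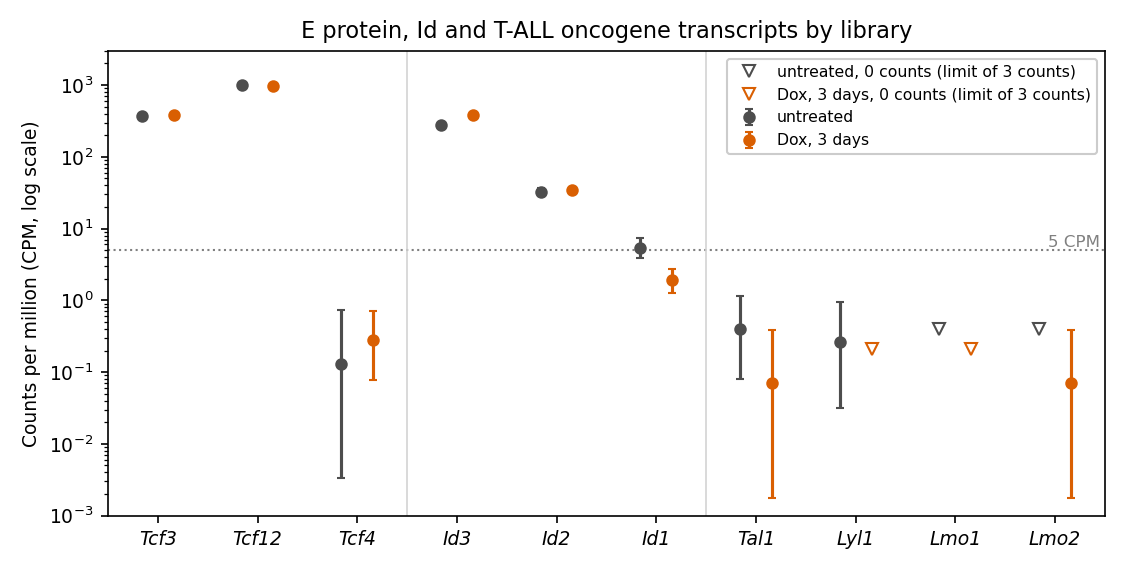
Level of each of the 10 genes in CPM (vertical axis, log scale) in the untreated library (grey) and the Dox library (orange). Points are single libraries, bars are exact 95% Poisson intervals, and open triangles mark the limit of 3 counts for genes with 0 counts; Tcf3, Tcf12, Id3 and Id2 lie far above 5 CPM in both libraries, Id1 crosses that line, and Tcf4 and the 4 oncogenes lie under 1 CPM.

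The T-ALL oncogene factors were close to undetected in both libraries. Tal1 (Entrez Gene 21349, chromosome 4 from 115056426 to 115071755), which encodes a blood stem cell and erythroid factor, had 3 counts without Dox and 1 with Dox, or 0.395 and 0.0703 CPM. Lyl1 (Entrez Gene 17095, chromosome 8 from 84701423 to 84704716), its close relative, had 2 counts without Dox, or 0.263 CPM, and 0 with Dox, which allows up to 0.211 CPM. Neither pair of values gives a fold, because both libraries are at or under the limit of 3 counts.

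Lmo2 (Entrez Gene 16909, chromosome 2 from 103957903 to 103981878), a bridge between TAL1 pairs and GATA factors, had 0 counts without Dox, which allows up to 0.395 CPM, and 1 count with Dox. Lmo1 (Entrez Gene 109594, chromosome 7 from 109138565 to 109175207) had 0 counts in both libraries. The 4 genes together held 5 counts without Dox, or 0.658 CPM (0.214 to 1.54), and 2 counts with Dox, or 0.141 CPM (0.0170 to 0.508). Against these, Tcf3 and Tcf12 together held 1352 and 1346 CPM.

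**Figure D2:**
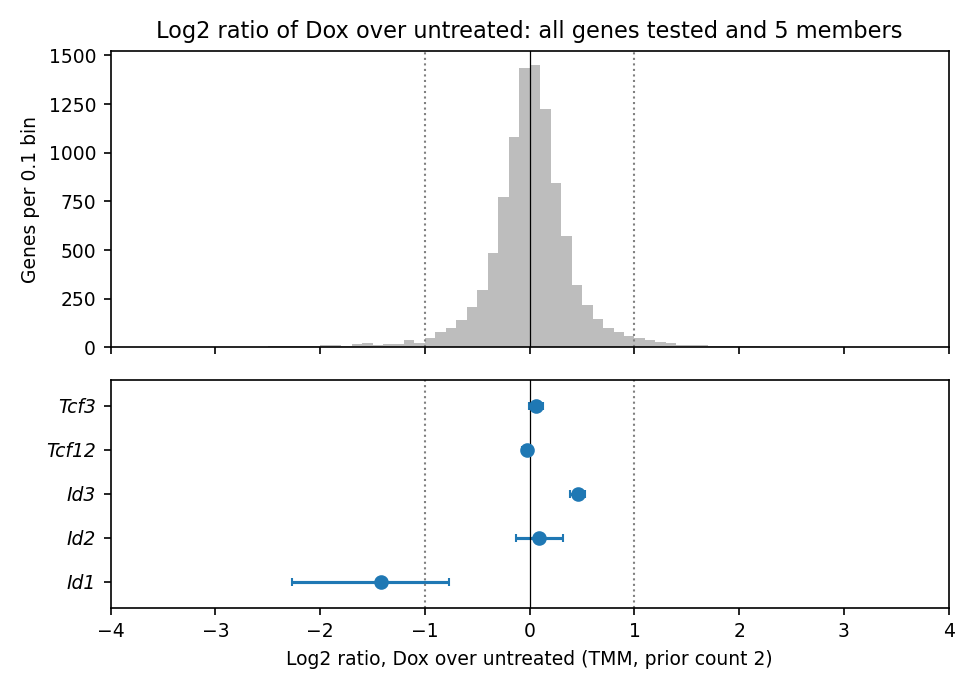
The upper panel counts the 10113 genes tested by their log2 ratio of Dox over untreated in bins of 0.1 (ratios beyond 4 are drawn in the end bins), and the lower panel gives the 5 members tested with exact 95% counting intervals; dotted lines mark 2-fold. Tcf3, Tcf12 and Id2 lie at the centre of the distribution, Id3 at 0.46 on its upper shoulder, and Id1 at -1.42 with an interval that crosses the 2-fold line.

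In all, 5 of the 10 members had at least 5 CPM in the higher library. Of these, 0 were called higher and 1 was called lower, and at 1.5-fold the counts were the same, against 6.28% of all genes tested that were at least 1.5-fold higher and 6.18% lower. Over 2 libraries the likeness of genes to a member is only a likeness of 1 ratio. The nearest named genes by log2 ratio were Heatr5b and Inpp5b for Id3, Afdn and Psrc1 for Id1, Smu1 and Mgrn1 for Id2, Fv1 and Nsmce2 for Tcf3, and Prdx4 and Zbtb11 for Tcf12, each within 0.01 of the member.

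Levels of different genes were compared as RPKM, that is CPM per kilobase of gene, with the lengths in the count table. Id3 was the most abundant member, at 295 RPKM without Dox and 405 RPKM with Dox, ranks 161 and 103 among all listed genes. Tcf12 followed at 195 and 191 RPKM and Tcf3 at 103 and 107 RPKM. Id2 stood at 25.6 and 27.2 RPKM and Id1 at 5.92 and 2.08 RPKM, and the order was the same in both libraries. It depends in part on the lengths, which are 5061 bases for Tcf12 in the table and 15529 bases over all exons annotated by GENCODE. With the GENCODE lengths Tcf3 came before Tcf12, at 90.5 against 63.5 RPKM without Dox and 94.2 against 62.2 RPKM with Dox, while Id3 stayed first.

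Within the families, 1 gene made most of the Id transcripts and a pair shared the E protein transcripts. Id3 gave 90.4% of the length-scaled Id sum without Dox and 93.2% with Dox. Id2 gave 7.82% and 6.27%, and Id1 gave 1.81% and 0.480%. Tcf12 gave 65.4% of the E protein sum without Dox and 64.0% with Dox, and Tcf3 gave 34.6% and 36.0%. With GENCODE lengths the Tcf12 share was 41.2% and 39.8%.

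**Figure D3:**
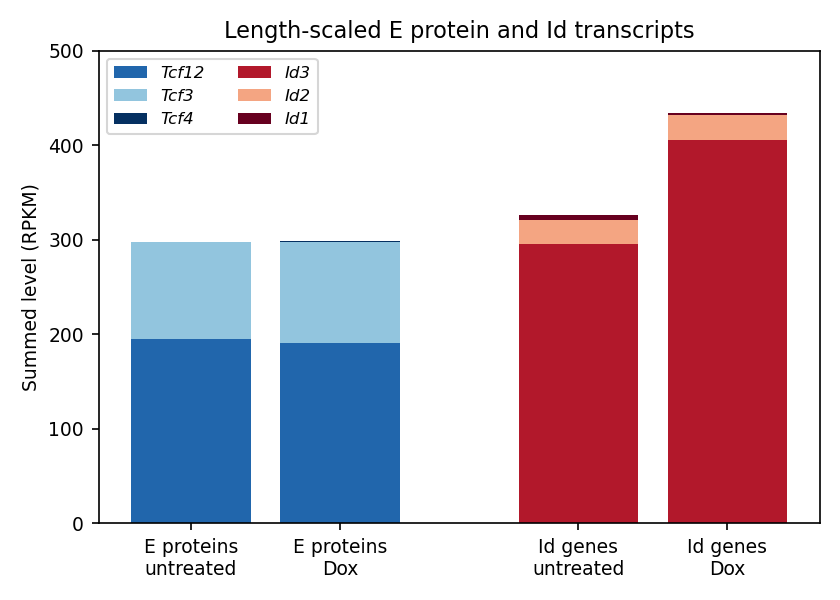
Stacked bars give the summed level in RPKM (CPM per kilobase, vertical axis from 0) of the E protein genes and the Id genes in each library, coloured by gene. The E protein bars reach 298 RPKM in both libraries, while the Id bars reach 327 RPKM without Dox and 434 RPKM with Dox, most of each from Id3.

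The balance of Id to E protein transcripts stood higher in the Dox library. Such a balance is a ratio between genes of the same library, so that neither depth nor the scaling of library sizes enters it. The scaling by gene length does set its level, which was 0.236 and 0.314 for counts not scaled by length. The E protein sum was 298 RPKM in both libraries and the Id sum was 327 RPKM without Dox and 434 RPKM with Dox. The Id sum was thus 1.10 times the E protein sum without Dox (1.05 to 1.15) and 1.46 times with Dox (1.42 to 1.5003), a 1.33-fold difference (1.26 to 1.40). These 3 intervals are approximate, from the Poisson variances of the counts. The difference rests on Id3, since without Id3 the balance was 0.106 and 0.0984. The median log2 ratio was 0.01 over 748 tested genes of 900 to 1300 bases, the lengths of the Id genes, and 0.02 over 2068 of 3500 to 5100 bases, those of Tcf3 and Tcf12. RNA counts say nothing of the amounts of the proteins, which Id and E proteins need to meet in pairs.

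Ratios between single genes in the same library were also computed, although such a ratio alone does not show which of its genes differed. The Id3 over Tcf12 ratio per length was 1.51 without Dox and 2.12 with Dox, a 1.40-fold difference (1.32 to 1.49). Id3 over Tcf3 went from 2.86 to 3.78, a 1.32-fold difference (1.23 to 1.41). Id3 over Id2, its own relative, was 11.5 and 14.9, a 1.29-fold difference (1.09 to 1.52). Id2 against Tcf12 differed 1.09-fold (0.930 to 1.28), an interval that holds 1. Tcf3 against Tcf12 differed 1.06-fold (1.01 to 1.12), a small difference with an interval that leaves out 1. Id1 over Id3, the pair that stood furthest apart of the 10 pairs computed, was 0.0201 without Dox and 0.00514 with Dox, a ratio of 0.256 (0.151 to 0.428). All pairs with Id1 rest on its same 41 and 27 counts, so they are not separate observations. The pairs with Id3 likewise share its 2137 and 5492 counts, which also make most of the Id sum in the balance. Id1 also passed the 5 CPM minimum only through the untreated library.

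**Figure D4:**
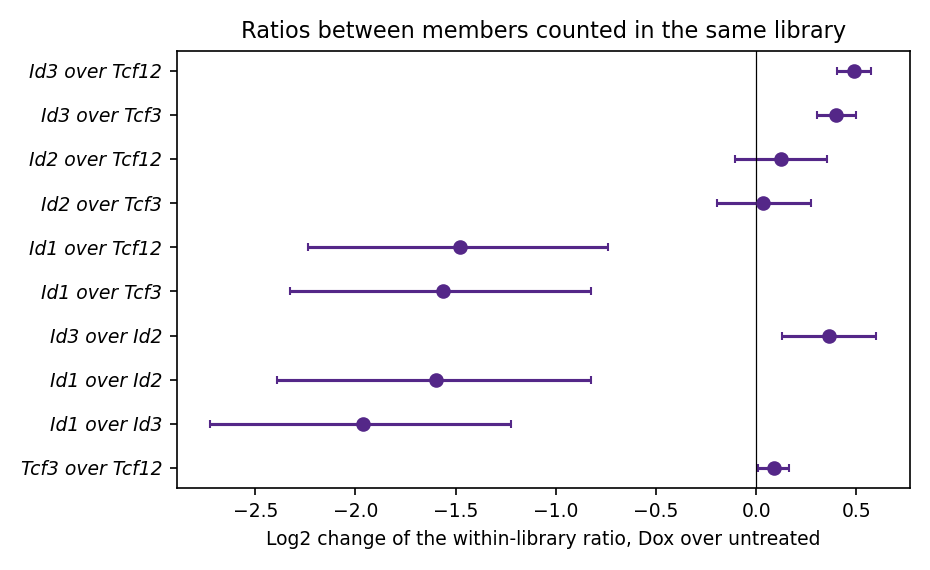
Points give the log2 change from the untreated to the Dox library of the ratio between 2 genes of the same library, with exact 95% conditional intervals, for 10 pairs. The ratios of Id3 to Tcf12, Tcf3 and Id2 lie above 0, those of Id2 to Tcf12 and Tcf3 include 0, and all 4 ratios with Id1 as numerator lie below 0. Those 4 share the same 41 and 27 counts of Id1, and the pairs with Id3 share its 2137 and 5492 counts.

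Other genes of the helix-loop-helix network were examined by list. The lists were chosen with earlier results of these data known, so list counts set beside the shares of all genes are description only. Of 27 further helix-loop-helix and LIM-only genes, 21 had 0 counts in both libraries, among them Id4, Tal2, Lmo3, Msc, Olig1 and Olig2. Only 1, Lmo4, averaged 1 CPM or more, at 108 and 111 CPM, and its log2 ratio was 0.05 (-0.08 to 0.17). Lmo4 is the LIM-only gene commonly expressed across tissues.

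The partners that TAL1 and LMO2 would need were mostly present. Of 21 partner genes, 18 had at least 1 CPM and 17 were tested, of which 0 were called higher and 1 lower, against 2.21% and 2.24% of all genes tested, with a median log2 ratio of 0.06 beside 0.01 for all 11498 genes at that level. The DNA-bridging factor gene Ldb1 stood at 276 and 291 CPM and Gata3, a T lineage factor, at 222 and 237 CPM, whereas Gata2 had 0 and 1 counts and Erg 0 in both. The called gene was Runx1, at 378 and 174 CPM (log2 ratio -1.12, interval -1.20 to -1.04). The corepressor gene Cbfa2t3 had a ratio of -0.78 (-1.003 to -0.565), Ssbp2, a stabiliser of LDB1, one of -0.63 (-0.85 to -0.41) and the ETS factor gene Fli1 one of 0.44 (0.28 to 0.60). Among 14 genes linked to TAL1 and LMO activity, 5 had at least 1 CPM, and Hhex, Aldh1a2 and Epb42 had 0 counts in both libraries. Of the 3 tested, the same Runx1 was called lower. The other 2 tested were Myb at -0.30 (-0.36 to -0.24) and Gata3 at 0.09 (0.01 to 0.18).

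Cofactors by which E proteins act on transcription differed by less than 2-fold. Of 8 tested, 0 were called, against 2.21% of all genes tested called higher and 2.24% lower. The median was -0.16, beside 0.01 for all genes tested. The largest ratios were those of Cbfa2t3, given above, of Tada2a, an adaptor of acetyltransferase complexes, at -0.58 (-0.77 to -0.40), and of the acetyltransferase genes Crebbp at 0.48 (0.34 to 0.62) and Ep300 at 0.45 (0.36 to 0.55).

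Genes listed as E protein targets in thymocytes, a list that mixes activated and repressed targets, went in both directions. Of 22 listed genes 19 were tested, of which 5 were called lower and 1 higher, against 2.24% and 2.21% of all genes tested, and the median over the 21 with at least 1 CPM was -0.21. Because the list was not chosen blind to these data, these counts cannot show an excess among E protein targets. The called genes with the largest ratios were Notch3 at -1.94 (-2.11 to -1.78), Notch1 at -1.60 (-1.66 to -1.54), Cdk6, a kinase of G1 phase, at -1.56 (-1.72 to -1.41) and the recombinase gene Rag1 at -1.54 (-1.72 to -1.37). Dntt was also lower at -1.12 (-1.17 to -1.07), and Foxo1, a factor of T cell quiescence, was higher at 1.19 (1.09 to 1.2996). Cd4, which E proteins activate, stood higher at 0.83 (0.67 to 0.99).

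Genes listed as acting upstream of the Id genes had a median log2 ratio of 0.27, beside 0.01 for all genes tested. The list mixes factors and receptors of several signals, so its median has no set direction for the Id genes. Of 20 listed genes 16 were tested, and 12 of the 16 had ratios above 0, against 51.8% of all genes tested. The rule called 1 in each direction, Egr2 and Acvr1, against 2.21% of all genes tested higher and 2.24% lower. Like Id1, both passed the 5 CPM minimum only through the library in which they were higher. Egr2, which acts between T cell receptor signals and Id3, stood at 2.11 and 9.21 CPM, from 16 and 131 counts, and its ratio was 2.04 (1.38 to 2.98). Its relative Egr1 stood at 67.2 and 129 CPM, a ratio of 0.93 (0.79 to 1.08), and Tgfb1, whose product signals through Smad proteins, at 0.75 (0.58 to 0.92). Acvr1, a receptor of bone morphogenetic proteins, stood at 6.58 and 3.02 CPM, from 50 and 43 counts, and its ratio was -1.08 (-1.74 to -0.50). Whether any of these genes bears on the Id ratios was not tested.

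Genes for the turnover of E and Id proteins differed by less than 1.5-fold where tested. Of 10 tested, 0 were called in either direction, against 2.21% of all genes tested called higher and 2.24% lower. Intervals that leave out 0 were found for 6, as for 50.7% of all genes tested. The median over the 11 genes with at least 1 CPM was 0.004. The 1 not tested was Asb2, with 1 and 41 counts and a log2 ratio of 3.28 (1.89 to 9.79), under the 5 CPM minimum. The largest ratios among those tested were 0.32 (0.19 to 0.45) for Fzr1, an activator of the anaphase-promoting complex, -0.31 (-0.38 to -0.24) for Usp1, which removes ubiquitin from Id proteins, and -0.29 (-0.43 to -0.15) for Skp2. The next was Cops5 at -0.22 (-0.34 to -0.10).

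**Figure D5:**
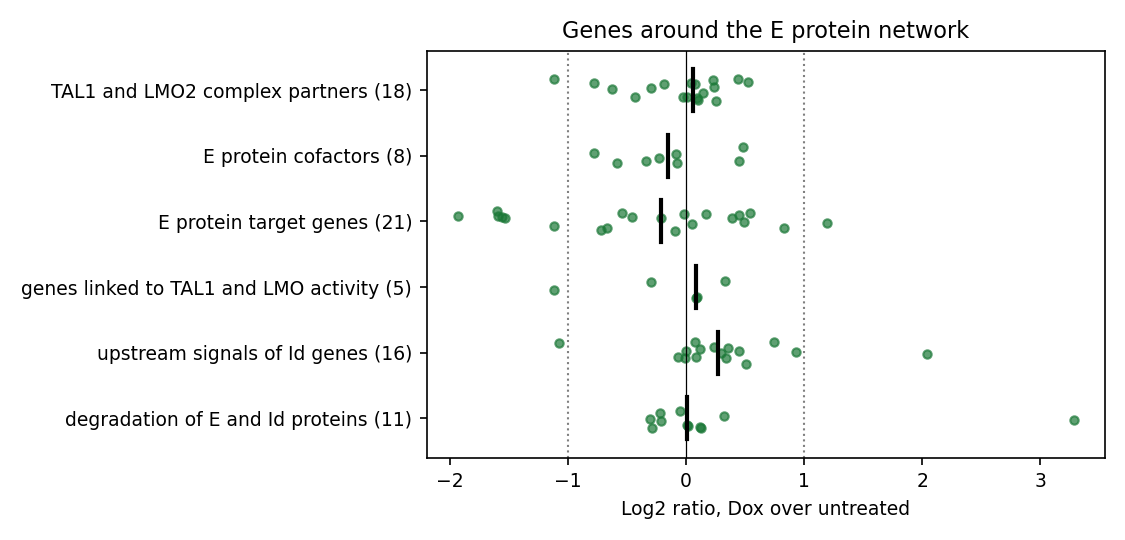
Each point is the log2 ratio of Dox over untreated of a gene that averaged 1 CPM or more, by list, with the number of genes in brackets, and black bars are the list medians; dotted lines mark 2-fold. The E protein targets spread most towards lower ratios, with 5 genes called lower, and the point furthest right is Asb2, which had 1 and 41 counts and was under the 5 CPM minimum.

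Markers of other cells that express these factors were examined. For plasmacytoid dendritic cells, which depend on Tcf4, the defining markers Siglech (0 and 1 counts), Spib and Klk1 (0 counts each) were near 0. Of the 9 of 10 listed genes that were found, 5 had at least 1 CPM. The summed level of 273 and 594 CPM was mostly that of Ccr9, a chemokine receptor gene of thymocytes, at 261 and 580 CPM. The others at that level were Ly6d with 44 and 99 counts, Il3ra with 30 and 50, Pld4 with 11 and 19 and Runx2 with 6 and 31. Runx2 had a log2 ratio of 1.28 (0.18 to 3.02), while the intervals of Ly6d, Il3ra and Pld4 held 0. For B cells, Pax5, Ebf1, Ms4a1 and Blk had 0 counts in both libraries, and 0 of 8 markers had 1 CPM, with sums of 0.526 and 0.703 CPM.

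For erythroid cells and megakaryocytes, which use Tal1, Lyl1 and Lmo2, traces were found. Of 9 erythroid markers found 6 had at least 1 CPM, among them Gata1 with 10 and 28 counts and Hbb-bs with 9 and 23 counts, and the sums of 492 and 428 CPM were mostly the transferrin receptor gene Tfrc, a gene of dividing cells. Of 8 megakaryocyte markers 2 had at least 1 CPM, with sums of 2.63 and 3.09 CPM, and Pf4, Gp1bb and Gp9 had 0 counts. For natural killer and innate lymphoid cells, which need Id2, Ncr1, Klrk1 and Klrd1 had 0 counts, and 4 of 9 markers had at least 1 CPM, with sums of 271 and 284 CPM that were mostly Gata3. Rora, at -0.61 (-1.01 to -0.23), and Tbx21, at 0.31 (0.01 to 0.63), had the largest ratios of these. For conventional dendritic cells, another Id2-dependent type, 1 of 8 markers had at least 1 CPM. It was the chemokine receptor gene Ccr7, at 49.1 and 101 CPM of sums of 49.6 and 103 CPM. Flt3 had 3 and 19 counts and Xcr1 0 and 5, with ratio intervals that hold 0, and Zbtb46, Batf3 and Cd209a had 0 counts. The part of these cells in the counts of the scarce members was not tested.

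Overlapping genes bear on the scarce members. RefSeq places long non-coding RNA genes within the spans of Tal1, Lmo1, Lmo2 and Tcf4, and Nfix, with 6 and 13 counts, shares 5 bases with Lyl1. Pseudogenes lie within the span of Tcf12. No source used here gives the strand setting of the counts, so reads of overlapping genes cannot be told apart. Id1, Id2, Id3 and Tcf3 have no overlapping gene in that table.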

How the data were processed

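RNA sequencing counts were used for 1 untreated and 1 Dox library. The deposited values are counts, whole reads per gene with no normalization by the authors. The submitters' processing notes name CASAVA 1.8.2, featureCounts and mm10. For the aligner, annotation and strand setting, none is given in the sources used here. Per the labels, 3 mice were used in each group and each RNA was run 2 times, and how these became 1 column per group is not given either. Gene lengths are those of the deposited table. Symbols came from RefSeq (GRCm38.p6), which named 25275 of 27179 genes, and 213 of 215 list entries were found.

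Scaling used edgeR 4.0.16 (TMM) in R 4.3.3, with DESeq2 1.42.0 size factors as an alternative. Ratio intervals are Clopper-Pearson, and the limit for a count of 0 is 3 counts. Pair intervals are exact conditional ones (scipy 1.17.1). The interval of the Id to E protein balance uses Poisson variances. All 10 members are named, with up to 4 genes of each list by largest ratio at 5 CPM or more. Dntt, Foxo1, Cd4, Ldb1, Gata2 and markers named for low or 0 counts were chosen after their values were seen, and so was Asb2. The members and lists were chosen with earlier results of these data known. Some single-gene values are left out of the text.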

Additional observations from a re-analysis of the deposited data

How the results depend on the processing

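No paired analysis was possible because each group has 1 library. With total counts, DESeq2 size factors, a prior count of 0.5 or 5, a minimum of 1 CPM, or a correction for gene length added after seeing the data, Id1 remained the only member called. Id1 was not called at a minimum of 20 CPM, with the interval bound in place of the ratio, or with thinned Dox counts, which left 0 members past 2-fold lower, and at 20 CPM 0 past 1.5-fold lower. The thinning was a single random draw, and other draws were not made. With no minimum 3 members were past 2-fold lower and 3 past 1.5-fold lower, the others being Tal1 and Lyl1 with 3 counts or fewer. Over all genes, 223 higher and 227 lower became 407 and 440 at 1 CPM, 129 and 104 at 20 CPM, 784 and 744 with no minimum, and 115 and 141 with the interval bound. Tcf12 stood at -0.077 with total counts, outside its interval. The Id to E protein balance, without and with Dox, was 0.236 and 0.314 for counts not scaled by length, 3.17 and 4.05 without Tcf12, and 0.106 and 0.0984 without Id3. Its log2 change of 0.41 reversed to -0.10 without Id3, where Id1 stood lower with Dox and Id2 did not, so that this sign rests on the 41 and 27 counts of Id1. It lay between 0.35 and 0.42 otherwise. The median of the E protein targets, -0.21, was -0.09 at 5 CPM and -0.34 with no minimum. Depth limits the 5 members under 5 CPM and Id1.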

Other observations

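Asb2, chosen after its values were seen, encodes a ubiquitin ligase subunit that is known to direct E proteins to degradation. It had 1 count without Dox and 41 with Dox, or 0.132 and 2.88 CPM, and its log2 ratio was 3.28 (1.89 to 9.79). It lay under the 5 CPM minimum and so was not tested.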
